A study of Mus musculus with 16 samples.

Results

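Wild-type mouse germline stem (GS) cells kept at 20% oxygen were compared between 2 genetic backgrounds. There were 2 libraries from cells on a mixed 129 and C57BL/6 background, labelled Hif1a wild-type and called the Hif1a line here, and 2 libraries from DBA/2 cells. These are 4 of the 16 libraries of the series, chosen by their labels for genotype, background and oxygen level and not by any measured value. The comparison ran over the 14841 genes, of 21924 in the deposited protein-coding table, that had at least 1 CPM (reads per 1000000 reads on protein-coding genes) in at least 2 of the 16 libraries.

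The study sequenced poly(A) RNA of GS cells from testis after culture at 20% or 1% oxygen, in wild-type cells and in cells lacking Hif1a or Top1mt. All cultures had GDNF and FGF2 in the medium and a layer of mouse embryonic fibroblasts beneath the cells, so each library can hold fibroblast RNA. A Cre virus is described for the Hif1a knockout cells alone, and whether wild-type cells of that line received a control virus or carry a floxed allele is not stated. Beside the 4 libraries, 3 wild-type pairs at 1% oxygen are compared: the Hif1a line, DBA/2, and C57BL/6 cells labelled Top1mt wild type. Nothing in the labels says that the 2 libraries of a pair came from separate animals or derivations, so p-values measure the spread between these libraries. Each background is represented by 1 set of cultures. The labels number the libraries 13 and 14 for DBA/2 and 9 and 10 for the Hif1a line at 20%, and at 1% both lines carry the numbers 17 and 18, so strain, cell line and sequencing set cannot be told apart.

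GS cells are the cultured form of spermatogonial stem cells, the cells that maintain sperm production. GDNF acts on them through the receptor pair GFRA1 and RET, and with FGF2 it maintains transcription factors of self-renewal such as ID4, ETV5 and BCL6B. Mouse strains differ in inherited regulatory variants, in clusters of duplicated genes and in how readily such cultures grow, and DBA/2 is a strain long used to derive them.

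Reads on these genes ranged from 16324013 to 23436895 in the 4 libraries, so that 1 read stood for 0.0427 to 0.0613 CPM. Replicates differed beyond counting error in both groups, with a chi-square per gene of 3.49 in DBA/2 and 1.79 in the Hif1a line, where 1 would be counting error alone. All 16 markers listed for undifferentiated spermatogonia were at 1 CPM or more in each of the 4 libraries. Their summed level was 4513 and 4663 CPM in DBA/2 and 3512 and 3460 CPM in the Hif1a line. The Leydig cell genes Cyp17a1 and Insl3 had 0 reads in all 4 libraries, and the Sertoli cell hormone Amh had at most 6 reads. Other markers of these cell types were detected: Wt1 at 24.2 to 29.3 CPM, Sox9 at 9.04 to 19.9 CPM, Gata4 at 1.9 to 2.93 CPM and Star at 4.47 to 5.12 CPM. The 4 Sertoli markers summed to 51.4 and 51.6 CPM in DBA/2 and 36 and 38.4 CPM in the Hif1a line, and their part in the results was not tested. Of 26 fibroblast feeder markers, all were detected, and their sum was 10471 and 8342 CPM in DBA/2 and 13482 and 14556 CPM in the Hif1a line.

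At 20% oxygen, 3917 genes (26.4% of those tested) were higher in the Hif1a line and 3347 (22.6%) were lower, at an adjusted p of 0.05 from limma over all genes. Most differences were small. A change of at least 2-fold on the log2(CPM + 1) scale was reached by 176 of the higher genes (1.19% of all tested) and 142 of the lower ones (0.957%), and the median log2 difference over all genes was 0.03. With the summed feeder markers as a covariate, 1797 genes were higher and 1622 lower. The covariate was fitted beside the group means, so its slope rests on differences between the 2 libraries of each group. Because the sum also differs between groups, the covariate widens the errors. Fewer calls here and below can come from this, which was not tested. Exact permutation of 2 against 2 libraries cannot give a two-sided p below 0.333, so each gene was tested with a spread shared over all groups.

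The 15 genes with the largest rises, among called genes with a mean of at least 5 CPM in a group, had log2 differences from 1.73 to 2.96. The choice also required that the libraries of the 2 lines did not overlap. Prelp, a small leucine-rich proteoglycan that binds collagen, had 9.78 and 7.17 CPM in the DBA/2 libraries and 76.0 and 67.9 CPM in those of the Hif1a line. Its neighbour Fmod, a collagen-binding proteoglycan of the same family, had 5.35 and 3.67 CPM against 27.3 and 24.9 CPM. For both genes every Hif1a-line library lay above every DBA/2 library, as the choice required. The log2 difference was 2.96 for Prelp (SE 0.12, adjusted p 1.8e-12) and 2.31 for Fmod (SE 0.14, adjusted p 1.6e-10). Prelp (chr1:133910304-133921414) and Fmod (chr1:134037254-134048277) lie side by side in mm10.

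Cemip, which takes part in breaking down hyaluronan, rose from 7.54 and 4.39 CPM in DBA/2 to 37.9 and 37.7 CPM. Ankrd1, an ankyrin repeat protein known as a target of the YAP coactivator, had 1.68 and 1.79 CPM against 15.8 and 14.8 CPM. Lpl, the lipoprotein lipase that frees fatty acids from circulating triglyceride, had 2.28 and 2.47 CPM against 13.2 and 12.6 CPM. For these 3 the log2 differences were 2.51, 2.58 and 2.04.

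Vwf, the clotting factor best known from endothelial cells, had 6.05 and 5.63 CPM in DBA/2 and 34.7 and 32.3 CPM in the Hif1a line. Sfi1, a centrin-binding protein of the centrosome, had 78.6 and 81.3 CPM against 293 and 304 CPM (log2 difference 1.89, SE 0.06, adjusted p 1.6e-14). B3gnt5, which starts the lacto-series of glycolipids, had 4.56 and 4.35 CPM against 18.4 and 17.8 CPM. The others were Tmem40, Clca3a1, Syt13, Pcdh18, Zfhx4, Capn11 and Tinagl1, with log2 differences from 1.73 to 2.40. Tinagl1 was the last gene inside the limit at 1.73 and Snai2, at 1.70, the first outside it.

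**Figure D1:**
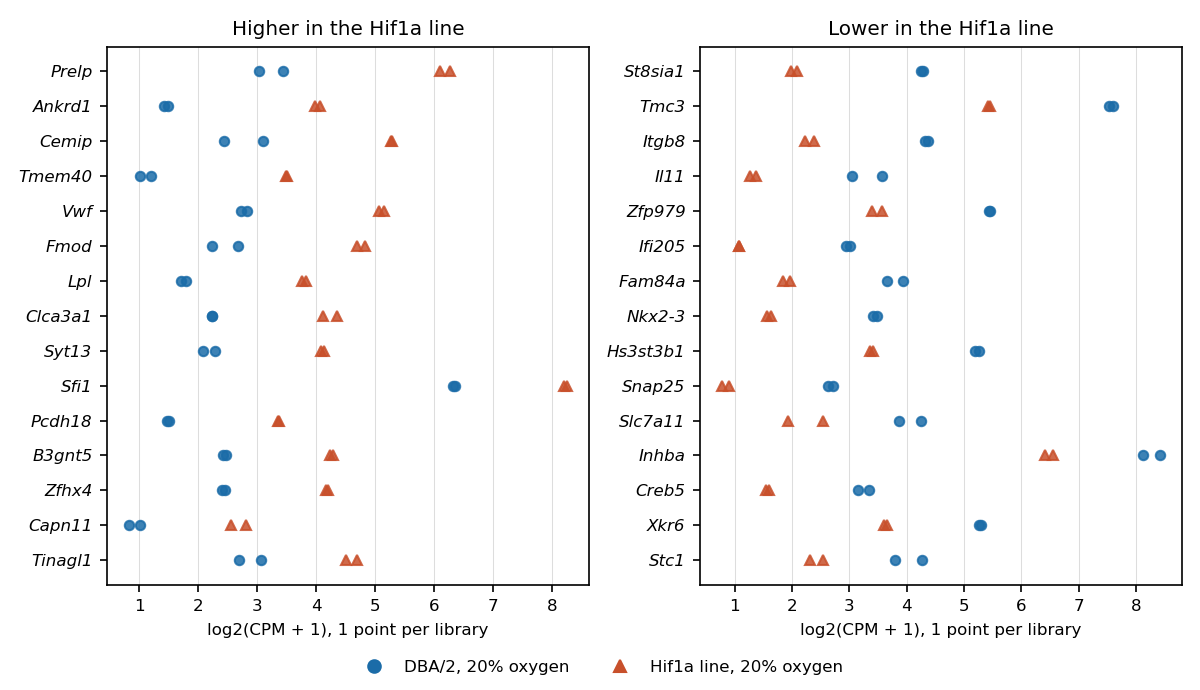
Level of the 15 genes with the largest rises (left) and the 15 with the largest falls (right) at 20% oxygen, as log2(CPM + 1) on the horizontal axis, with 1 point per library, circles for DBA/2 and triangles for the Hif1a line. The libraries of the 2 lines do not overlap for any gene shown, which the choice of the genes required, and Prelp and St8sia1 head the 2 panels with log2 differences of 2.96 and -2.23.

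The 15 largest falls, chosen by the same rule, had log2 differences from -1.61 to -2.23. Inhba, the activin subunit, had 341 and 276 CPM in DBA/2 and 84.5 and 92.5 CPM in the Hif1a line. Itgb8, the integrin chain that frees latent TGF-beta, had 19.7 and 19 CPM against 3.68 and 4.21 CPM. Il11, a cytokine of the interleukin 6 family, had 10.8 and 7.21 CPM against 1.41 and 1.58 CPM. The log2 differences were -1.78 for Inhba, -2.04 for Itgb8 and -1.98 for Il11. Stc1, the secreted hormone stanniocalcin 1, closed the set with 18.2 and 12.9 CPM against 3.98 and 4.78 CPM, a log2 difference of -1.61, and Prok2 followed just outside it at -1.60.

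St8sia1, the sialyltransferase that makes the ganglioside GD3, fell furthest. It had 18.4 and 18.1 CPM in DBA/2 and 2.94 and 3.25 CPM in the Hif1a line, a log2 difference of -2.23 (SE 0.15, adjusted p 1.3e-09). Tmc3, of the transmembrane channel-like family, had 183 and 192 CPM against 42.5 and 41.6 CPM. Snap25, a SNARE protein of exocytosis, had 5.17 and 5.59 CPM against 0.858 and 0.717 CPM. Both DBA/2 libraries were higher for each of the 3, which the choice of the genes required. Zfp979, Ifi205, Fam84a, Nkx2-3, Hs3st3b1, Slc7a11, Creb5 and Xkr6 made up the rest, with log2 differences from -1.65 to -1.96. All 30 genes kept their direction and their call in each of the 14 alternatives tried, the feeder covariate included.

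Fibroblast feeder markers were higher in the Hif1a line, though not evenly. Of 26 tested, 18 (69.2%) rose and 1 (3.85%) fell, beside 26.4% and 22.6% of all genes. The median log2 difference was 0.45 beside 0.03 for all genes. Contractile and matricellular genes rose most: Acta2, smooth muscle actin, had 49.3 and 39.8 CPM in DBA/2 and 141 and 141 CPM in the Hif1a line. Ccn2, Tagln and Thbs1 had log2 differences of 1.42, 1.32 and 1.13. The collagens of the list moved less, with 0.46 for Col1a1 and 0.25 for Col3a1 (adjusted p 0.069), and Lum, a proteoglycan of fibroblasts, was the member that fell, at -0.34. More fibroblasts in a culture and more RNA per fibroblast cannot be told apart in bulk RNA, and this holds for every cell type below.

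Genes of self-renewal were mostly lower in the Hif1a line. Of 35 tested, 22 (62.9%) fell and 5 (14.3%) rose, beside 22.6% and 26.4% of all genes. The median log2 difference was -0.28, and with the feeder sum as a covariate 17 fell and 3 rose. Id4, an inhibitor of DNA binding that marks stem cells among spermatogonia, had 71.7 and 66.1 CPM in DBA/2 and 38.3 and 38.4 CPM in the Hif1a line. Bcl6b, a repressor induced by GDNF, had 259 and 271 CPM against 166 and 157 CPM. Foxo1, a transcription factor needed for stem cell maintenance, had 291 and 291 CPM against 181 and 188 CPM. The lines did not overlap for these 3 genes, and the log2 differences were -0.83, -0.71 and -0.66. Tspan8, a tetraspanin used to enrich stem cells, fell from 3.07 and 3.5 CPM to 0.551 and 0.430 CPM.

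The receptors moved less than the transcription factors named above. Gfra1, the GDNF-binding receptor, had 245 and 257 CPM in DBA/2 and 216 and 200 CPM in the Hif1a line, a log2 difference of -0.27 (adjusted p 0.0022). Ret, its signalling partner, differed by -0.12 (adjusted p 0.028). Zbtb16, which codes for the stem cell factor PLZF, differed by -0.34. Neurog3, a factor of progenitors preparing to differentiate, went the other way, from 0.605 and 0.427 CPM to 2.88 and 2.92 CPM (log2 difference 1.36); it and Lhx1, at -1.37 the second largest fall of the list, were singled out after their values were seen.

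Surface markers of spermatogonia were split, with 8 of 18 (44.4%) higher and 4 (22.2%) lower, beside 26.4% and 22.6% of all genes. Itga6, the laminin receptor chain used to sort stem cells, had 181 and 190 CPM in DBA/2 and 91.5 and 103 CPM in the Hif1a line. Epcam, an adhesion molecule of spermatogonia, differed by -0.49, while the adhesion receptors Adgra3 and Ncam1 differed by 0.63 and 0.62. The number of risen surface markers was 3 without DBA/2 replicate 2 and 5 without the Hif1a-line replicate 2.

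Differentiation and meiotic genes were also lower on balance. Of 17 differentiation genes, 9 (52.9%) fell and 4 (23.5%) rose, beside 22.6% and 26.4% of all genes. With the feeder sum as a covariate 7 fell and 1 rose. Kit, the stem cell factor receptor that appears as spermatogonia differentiate, had 165 and 160 CPM in DBA/2 and 96.9 and 89.7 CPM in the Hif1a line, a log2 difference of -0.79. Stra8, the gatekeeper of meiotic entry induced by retinoic acid, had 85.9 and 87.9 CPM against 66.9 and 68.0 CPM, and Dmrt1 differed by -0.40. Dmrtb1, a regulator of the switch to meiosis, rose from 5.21 and 5.03 CPM to 9.56 and 10.6 CPM.

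Of 22 genes of meiotic prophase, 15 (68.2%) fell and 3 (13.6%) rose, beside 22.6% and 26.4% of all genes. The median log2 difference was -0.24. Sycp3, a protein of the axis between meiotic chromosomes, had 98.6 and 98.6 CPM in DBA/2 and 39.8 and 43.2 CPM in the Hif1a line. Sycp1, which links paired axes, had 157 and 173 CPM against 84.4 and 81.7 CPM. Tex15 and Rad21l fell by 0.61 and 0.68 on the log2 scale. The count of fallen meiotic genes was 9 without the Hif1a-line replicate 2, and 4 with the feeder sum as a covariate. The count of risen ones was 1 without DBA/2 replicate 1 and 1 without the Hif1a-line replicate 2.

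Germ cell identity genes fell in 9 of 17 cases (52.9%) and rose in 4 (23.5%), beside 22.6% and 26.4% of all genes. With the feeder sum as a covariate, 1 of the 17 was called lower. The count of risen ones was 2 without DBA/2 replicate 1 and 2 without the Hif1a-line replicate 1. Dazl, an RNA-binding protein of germ cells, had 1162 and 1231 CPM in DBA/2 and 849 and 839 CPM in the Hif1a line. Ddx4, the helicase that marks the germ lineage, differed by -0.28. Of 20 piRNA pathway genes, which overlap with this list, 8 fell and 3 rose, and 4 fell without DBA/2 replicate 2 and 5 without the Hif1a-line replicate 1. The count that fell was 1 with the feeder sum as a covariate. Replicate 1 of either line also set the count that rose, which was 1 without it. Among them Mael differed by -0.28, Asz1 by -0.35 and Tdrd7 by 0.25.

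Cholesterol synthesis genes were lower in the Hif1a line. Of 25 genes of the pathway and its control, 22 were lower in the Hif1a line and 0 were higher, against 22.6% and 26.4% of all genes, and the median log2 difference was -0.70. This pathway builds cholesterol from acetyl-CoA through mevalonate, and its genes are known to be switched on together by the factor SREBP2 when sterols run short. Cyp51, which removes a methyl group from lanosterol, had 173 and 165 CPM in DBA/2 and 77.3 and 79.4 CPM in the Hif1a line. Hmgcs1, the synthase that starts the mevalonate branch, had 470 and 471 CPM against 244 and 242 CPM. Sqle, the epoxidase of squalene, had 193 and 184 CPM against 110 and 103 CPM. None of the 3 overlapped between lines, with log2 differences of -1.10, -0.95 and -0.82 and standard errors of 0.05 for each.

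The regulators of the pathway moved in the same direction. Insig1, which holds SREBP in the endoplasmic reticulum when sterols are plentiful, had 395 and 382 CPM in DBA/2 and 212 and 204 CPM in the Hif1a line. Srebf2, which codes for SREBP2, differed by -0.24. Idi1, the isomerase of isoprenoid units, had the largest difference of the list at -1.48 and was singled out after its value was seen. Tm7sf2 and Ebp, both under 4 CPM in these libraries, were among the 3 members that did not pass the test. With the feeder sum as a covariate 20 members were lower, and between 21 and 22 were lower when any 1 of the 4 libraries was left out.

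**Figure D2:**
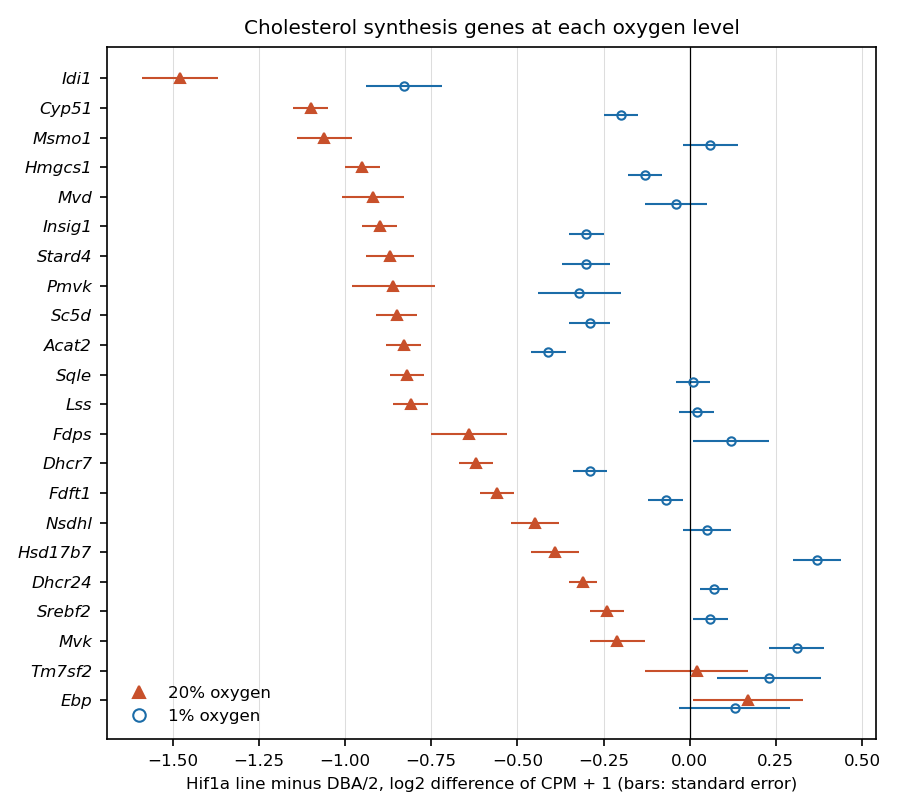
Difference between the Hif1a line and DBA/2 in 22 of the 25 cholesterol synthesis genes, as a log2 difference of CPM + 1 with its standard error as a bar, with triangles for 20% and open circles for 1% oxygen. At 20% the points run from -1.48 for Idi1 to 0.17 for Ebp, and at 1% they lie on both sides of 0, with a median of 0.01 over all 25.

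At 1% oxygen, in libraries that the comparison at 20% did not use, 10 of the 25 genes were lower and 3 higher in the Hif1a line. Over all genes 41.4% were lower and 21.7% higher at 1%, so the share lower was near that of all genes. The median log2 difference was 0.01, beside -0.12 for all genes. Hmgcs1 was then at 336 and 339 CPM in DBA/2 and 324 and 295 CPM in the Hif1a line, and Sqle at 147 and 148 against 150 and 147 CPM. In C57BL/6 cells at 1% oxygen 15 members were higher and 3 lower than in DBA/2 (median 0.28), beside 28.9% and 32.9% of all genes. That comparison and the one at 1% share the DBA/2 libraries.

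Promoters of the pathway were searched for the core of the sterol regulatory element, the site SREBP binds, because 22 of its members fell. RefSeq windows (GRCm38.p6) of 300 bases, from 250 before to 50 after a start site, were available for 17 of the 25 genes. The letters TCACNCCAC, searched on both strands, were found in 1 of these 17, Hmgcs1, and in 1.44% of all 27025 genes with a window. A chromosome was left out of the search among list genes but kept over all genes. A match in a list gene there would have been missed, so the shares are not strictly comparable. The bases before the Hmgcs1 start (chr13:119690101-119690350, plus strand) are shown with the match in capitals.
Hmgcs1: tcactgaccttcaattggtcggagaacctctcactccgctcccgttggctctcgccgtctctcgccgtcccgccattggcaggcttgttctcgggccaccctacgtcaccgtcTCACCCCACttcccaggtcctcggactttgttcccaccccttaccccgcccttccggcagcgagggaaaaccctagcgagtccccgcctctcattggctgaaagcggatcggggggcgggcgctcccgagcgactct
The match begins 137 bases before the start. A match is a description of the letters and no evidence of binding.

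Of 27 antioxidant genes tested, 10 (37.0%) fell and 7 (25.9%) rose, beside 22.6% and 26.4% of all genes. Of these genes 6 fell and 3 rose with the feeder sum as a covariate. Slc7a11, the cystine importer that feeds glutathione synthesis, had 17.9 and 13.5 CPM in DBA/2 and 2.82 and 4.83 CPM in the Hif1a line. Srxn1, which repairs oxidised peroxiredoxins, had 147 and 114 CPM against 51.2 and 53.2 CPM. Nfe2l2, which codes for NRF2, the factor that turns on this programme through the antioxidant response element, had 173 and 162 CPM against 104 and 105 CPM. DBA/2 was higher in both libraries for all 3, with log2 differences of -1.81, -1.30 and -0.68.

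Txnrd1, a thioredoxin reductase and known NRF2 target, differed by -0.59, and Gsr, Gclm, Gclc and Hmox1 by -0.54, -0.24, -0.19 and -0.31. Gstm2, a glutathione transferase, rose from 2.42 and 2.35 CPM to 6.55 and 6.93 CPM, and Keap1, which marks NRF2 for destruction, differed by 0.52. Nqo1, another NRF2 target, had 28.6 and 22.4 CPM against 29.6 and 30.7 CPM (log2 difference 0.24, adjusted p 0.12).

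The core of the antioxidant response element, TGACNNNGC on either strand, was in 14% of all genes with a RefSeq window. Of the 27 antioxidant genes tested, 21 had a window and the letters were found in 7 of these. The same chromosome was left out of this search among list genes. Of the 10 fallen ones, 7 had a window and the letters were found in 6 of these. The other gene with a match, G6pdx, rose by 0.23 on the log2 scale. A match is no evidence of binding here either. Nfe2l2 and Txnrd1 are shown as 2 of the fallen members, by the 250 bases before the start (chr2:75704664-75704913, minus strand, and chr10:82858956-82859205, plus strand), with the match in capitals.
Nfe2l2: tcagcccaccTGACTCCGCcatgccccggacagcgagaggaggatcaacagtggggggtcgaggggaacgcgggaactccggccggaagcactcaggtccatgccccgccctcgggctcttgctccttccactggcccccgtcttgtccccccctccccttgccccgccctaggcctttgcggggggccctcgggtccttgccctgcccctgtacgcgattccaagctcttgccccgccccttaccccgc
Txnrd1: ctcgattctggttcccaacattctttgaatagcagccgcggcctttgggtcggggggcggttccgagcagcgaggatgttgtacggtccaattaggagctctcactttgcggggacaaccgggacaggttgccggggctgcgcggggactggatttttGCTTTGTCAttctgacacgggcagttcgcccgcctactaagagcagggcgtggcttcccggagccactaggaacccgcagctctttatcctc
In Nfe2l2 the match begins 240 bases before the start and reads on the strand of the gene, and in Txnrd1 it begins 92 bases before the start on the other strand.

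Genes of the unfolded protein and integrated stress responses were higher in the Hif1a line. Of 18 tested, 14 (77.8%) rose and 1 (5.56%) fell, beside 26.4% and 22.6% of all genes, with a median log2 difference of 0.31. Atf4, the factor that drives amino acid synthesis under stress, had 115 and 114 CPM in DBA/2 and 184 and 187 CPM in the Hif1a line. Asns, asparagine synthetase and a known ATF4 target, had 52.2 and 57.2 CPM against 111 and 103 CPM. Chac1, which degrades glutathione, had 1.68 and 0.896 CPM against 4.78 and 4.40 CPM. The lines were separate in each, and the chaperone Hspa5 differed by 0.25. Dnajb9, a cochaperone of the endoplasmic reticulum, was the member that fell, at -0.64. With the feeder sum as a covariate 8 of the 18 rose. At 1% oxygen 11 were higher and 2 lower, where 21.7% of all genes were higher and 41.4% lower.

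Immediate early genes, which respond quickly to growth factors and to handling, rose in 8 of 14 cases (57.1%) and fell in 3 (21.4%). Over all genes the shares were 26.4% and 22.6%. Fos had 58.2 and 59.4 CPM in DBA/2 and 158 and 170 CPM in the Hif1a line, Fosb 58.2 and 46.1 CPM against 142 and 150 CPM. Ier3 and Dusp1 differed by 1.18 and 0.70. Handling before lysis was not tested as a cause.

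**Figure D3:**
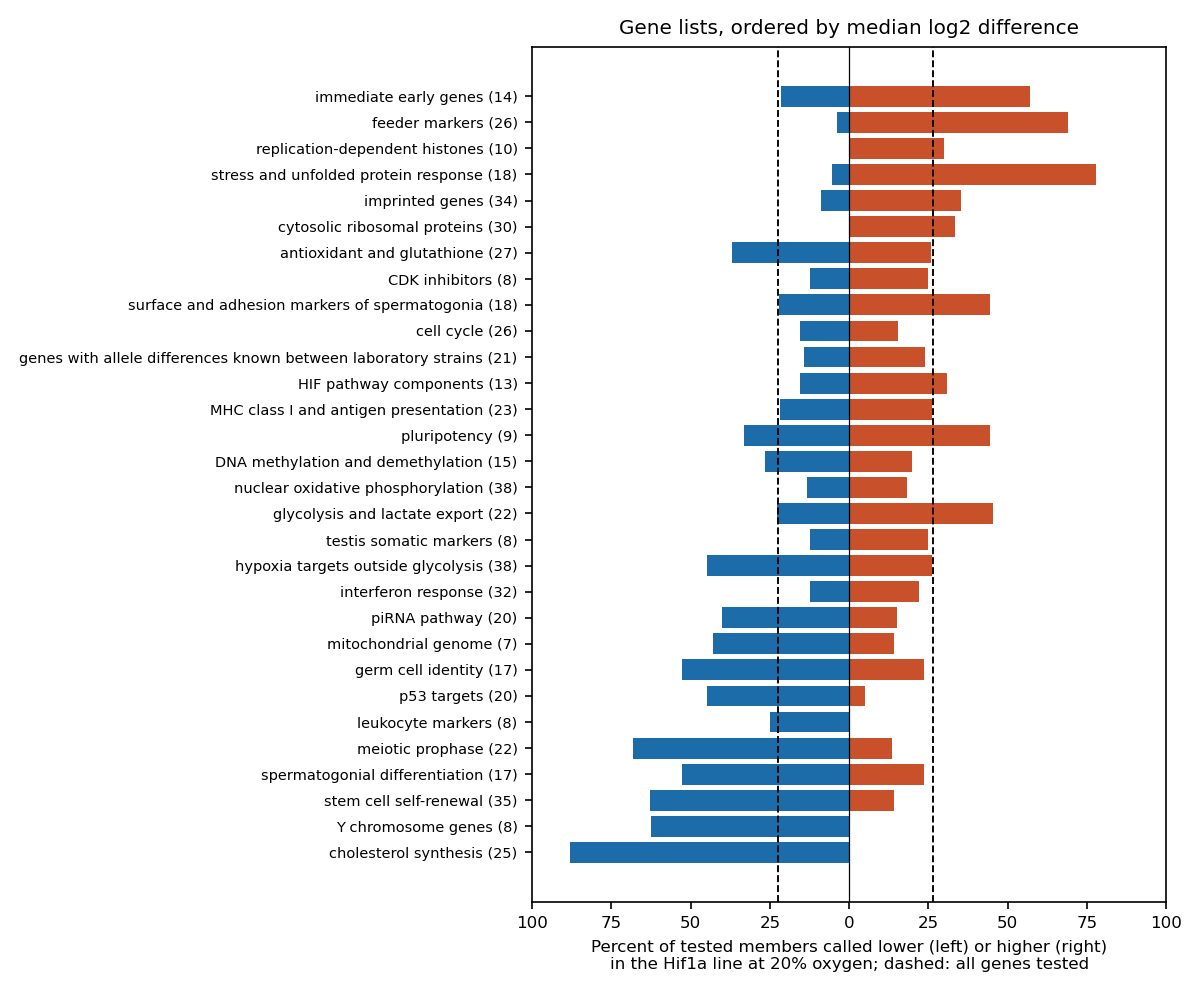
Percent of the tested members of each of 30 gene lists called lower (bars to the left) or higher (bars to the right) in the Hif1a line at 20% oxygen, with the number tested in brackets and the lists ordered by their median log2 difference. Dashed lines mark 22.6% lower and 26.4% higher over all genes; the cholesterol list reaches furthest to the left and the stress list furthest to the right.

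Growth control was divided. The p53 list, made of Trp53 and targets that slow growth or promote death, had 9 of 20 members (45.0%) lower and 1 (5.0%) higher. Over all genes 22.6% were lower and 26.4% higher. Without DBA/2 replicate 1, 4 members of the list were higher. Pmaip1, which codes for the death promoter NOXA, had 87.2 and 89.0 CPM in DBA/2 and 38.1 and 40.8 CPM in the Hif1a line. Trp53inp1 had 318 and 311 CPM against 146 and 150 CPM, and Eda2r 39.4 and 33.7 CPM against 17.8 and 16.8 CPM. Trp53 itself differed by -0.42. For all 4 the DBA/2 libraries were the higher ones.

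Of 26 cell cycle genes, 4 rose and 4 fell, a share below that of all genes in each direction. Mki67, the proliferation marker, had 239 and 259 CPM against 412 and 405 CPM, and Ccnd1, a cyclin of the first gap phase, differed by 0.70. Cdk2 and Ccne2 differed by -0.41 and -0.60. Cdkn2a, which codes for the inhibitors INK4A and ARF, had 71.6 and 69.7 CPM in DBA/2 and 70.0 and 67.4 CPM in the Hif1a line, and its libraries overlapped (log2 difference -0.04, SE 0.08, adjusted p 0.72).

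Of 38 HIF targets outside glycolysis, 10 (26.3%) were higher in the Hif1a line and 17 (44.7%) lower at 20% oxygen, beside 26.4% and 22.6% of all genes, with a median of -0.06. The feeder sum as a covariate left 5 higher and 12 lower. Hif1a itself had 118 and 101 CPM in DBA/2 and 116 and 118 CPM in the Hif1a line, an overlap, with a log2 difference of 0.11 (SE 0.06, adjusted p 0.14). Epas1, which codes for HIF2-alpha, differed by 0.29. Vegfa, the angiogenic growth factor, had 67.4 and 52.3 CPM against 29.0 and 29.4 CPM. Lox, which crosslinks collagen and is also made by fibroblasts, went the other way, from 203 and 152 CPM to 456 and 483 CPM.

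Glycolysis genes were higher in 10 of 22 cases (45.5%) and lower in 5 (22.7%), beside 26.4% and 22.6% of all genes. The share lower was thus near that of all genes. The fall in Pdk1, the kinase that keeps pyruvate out of mitochondria, had the smallest adjusted p of the list: 146 and 158 CPM in DBA/2 stood against 55.7 and 53 CPM in the Hif1a line (log2 difference -1.46, SE 0.05, adjusted p 1.0e-13). Ldhb, Slc2a3 and Aldoc differed by -0.80, -0.62 and -0.53. Slc16a3, the lactate exporter, had 4.52 and 3.97 CPM against 6.80 and 7.31 CPM, and the glucose transporter Slc2a1 differed by -0.21. With the feeder sum as a covariate 2 members were higher and 8 lower. Among 13 components of the HIF pathway, the oxygen sensor Egln3 differed by -0.40 and Egln2 by 0.26.

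Among mitochondrial genes, those of the nucleus changed little in number. Of 38 nuclear genes of oxidative phosphorylation, 7 rose and 5 fell, below the share of all genes in each direction, and 4 rose without DBA/2 replicate 2. Under the feeder covariate 5 rose and 2 fell. Of the 13 protein genes of the mitochondrial genome, 7 were tested. At 20% oxygen 3 (42.9%) of these were lower and 1 (14.3%) higher, beside 22.6% and 26.4% of all genes. With the feeder sum as a covariate 1 was lower and 2 higher. The untested ones include mt-Co3 and mt-Atp6, with 0 reads in the 4 libraries, and mt-Co2, with at most 1. How reads on this genome were counted was not tested. The complex I gene mt-Nd1 had 2943 and 3050 CPM in DBA/2 and 2005 and 2107 CPM in the Hif1a line, and mt-Co1, of complex IV, differed by -0.44. mt-Nd6, the protein gene on the opposite strand of the circle, rose from 9.17 and 10.8 CPM to 17 and 16.3 CPM. Top1mt, the mitochondrial topoisomerase, had 51.6 and 57.1 CPM against 52.6 and 55.3 CPM, and its libraries overlapped.

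Of 21 tested genes listed for known allele differences between laboratory strains, 5 (23.8%) were higher and 3 (14.3%) lower, beside 26.4% and 22.6% of all genes. Adding the feeder sum as a covariate left 1 higher and 2 lower. Gpnmb, a melanosome glycoprotein with a known stop codon in DBA/2J mice, had 24.4 and 19.2 CPM in DBA/2 and 32.5 and 36.5 CPM in the Hif1a line. Alad, of heme synthesis and known for copy number differences between strains, had 108 and 103 CPM against 111 and 108 CPM, and Glo1, also known for a duplication, 48.2 and 49.4 CPM against 46.6 and 43.9 CPM. Neither Alad (adjusted p 0.55) nor Glo1 (adjusted p 0.20) passed the test. Nnt, the transhydrogenase that carries a deletion in some C57BL/6 stocks, had 12 and 11 CPM against 14.3 and 15.8 CPM. The labels name no substrain. The log2 difference of Nnt was 0.36, and -0.02 with the feeder sum as a covariate. Without the Hif1a-line replicate 2, 2 members of this list were higher, and without DBA/2 replicate 2, 3 were.

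Ifi205, Ifi202b and Ifi203, members of the interferon-inducible Ifi200 family, were lower in the Hif1a line at 20%, while Aim2, a DNA sensor of that family, was higher (log2 difference 0.29, adjusted p 4.6e-02) and was looked up after the other values were seen. Ifi205 had 7.03 and 6.66 CPM in DBA/2 and 1.10 and 1.10 CPM in the Hif1a line, Ifi202b 14.1 and 13.4 CPM against 7.11 and 5.64 CPM, and Ifi203 3.72 and 2.43 CPM against 1.29 and 1.05 CPM. At 1% oxygen the order was turned: Ifi205 had 0.948 and 1.04 CPM in DBA/2 against 6.41 and 4.70 CPM in the Hif1a line. These genes are near copies of each other, and no label says how reads shared between copies were counted. Of 32 interferon-response genes as a whole, 7 (21.9%) rose and 4 (12.5%) fell, below the 26.4% and 22.6% of all genes. Without DBA/2 replicate 2, 2 fell. The counts were 2 and 2 with the feeder sum as a covariate. Among genes of MHC class I, H2-D1 had 294 and 285 CPM in DBA/2 and 197 and 208 CPM in the Hif1a line, while Tap1 and Tap2, the peptide transporter, differed by 0.53 and 0.55. Read mapping across the variable MHC genes may differ between strains and was not tested.

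Of 34 imprinted genes, 12 rose and 3 fell, beside 26.4% and 22.6% of all genes, and 1 fell when any 1 of the 4 libraries was left out. The count that rose was 8 without DBA/2 replicate 2 and 5 with the feeder sum as a covariate. Peg3, a paternally expressed zinc finger gene, had 43.4 and 41.3 CPM in DBA/2 and 67.3 and 67.6 CPM in the Hif1a line, and Nnat differed by 0.75. Plagl1, also paternally expressed, had 45.3 and 47.2 CPM against 25.7 and 28.2 CPM. Cytosolic ribosomal protein genes rose in 10 of 30 cases (33.3%, beside 26.4% of all genes) and fell in 0, and 2 rose with the feeder sum as a covariate; the largest difference was 0.41, in Rps20. Replication-dependent histone genes, whose RNA mostly lacks a poly(A) tail, rose in 3 of 10 cases (30.0%, near the 26.4% of all genes). Hist1h1c differed by 0.99. Among 15 genes of DNA methylation, 3 (20.0%) rose and 4 (26.7%) fell, near the 26.4% and 22.6% of all genes. With the feeder sum as a covariate the counts were 2 and 1. In this list Trim28 differed by 0.26, Tet1 by -0.73 and Dnmt3b by -0.25.

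Called genes lay on every chromosome, and over all genes 26.4% were higher and 22.6% lower. On chromosome 6, 283 of 706 tested genes (40.1%) were higher and 96 (13.6%) lower in the Hif1a line, with a median log2 difference of 0.14. On chromosome 7 the shares were 30.8% and 14.4%, with a median of 0.08. After centring each library on its own median over all genes, the median of chromosome 6 genes relative to DBA/2 at 20% was 0.11 and 0.12 in the 2 libraries, and 0.09 and 0.08 in the Hif1a line at 1% oxygen. On chromosome 13, 18.4% of genes were higher and 28.9% lower. Of 11 tested genes of the Y chromosome, 6 fell and 0 rose, with Usp9y at 59.9 and 62.4 CPM in DBA/2 and 41.3 and 43.6 CPM in the Hif1a line. Of the 8 Y genes on the list, 5 fell, and 1 did with the feeder sum as a covariate.

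The same 2 lines at 1% oxygen gave a further look at the line difference, in libraries not used at 20%. There, 3217 genes (21.7%) were higher and 6151 (41.4%) lower in the Hif1a line. This split depended on the scaling: with median-of-ratios factors 4412 genes (29.7%) were higher and 4324 (29.1%) lower, and the median over all genes moved from -0.12 to -0.007. Feeder markers differed far more at 1% than at 20%, with 22 of 26 higher and a median of 1.90. Their sum was 9032 and 8070 CPM in DBA/2 and 32490 and 41151 CPM in the Hif1a line at 1%. With this sum as a covariate, 243 genes were higher and 398 lower at 1%.

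Of the 176 genes at least 2-fold higher at 20% oxygen, 133 (75.6%) were also higher at 1%, 12 were lower and 31 did not pass. Of the 142 at least 2-fold lower, 77 (54.2%) were lower at 1%, 20 were higher and 45 did not pass. Under median-of-ratios scaling of both comparisons the shares were 78.6% of 173 genes and 47.0% of 132. Set against C57BL/6 minus DBA/2 at 1%, in which 28.9% of all genes were higher and 32.9% lower, 139 of the 176 were higher and 13 lower, and 55 of the 142 were lower and 35 higher. C57BL/6 is part of the background of the Hif1a line, and this comparison uses none of the libraries at 20%. Its feeder markers were also higher, 24 of 26 with a median of 1.59, and with their sum as a covariate 302 genes were higher and 247 lower.

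**Figure D4:**
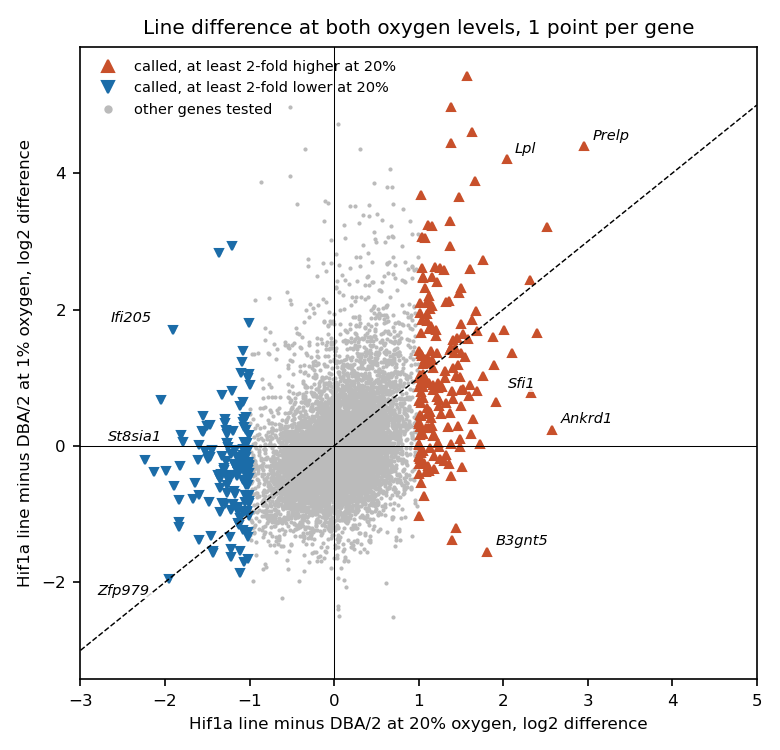
Log2 difference between the Hif1a line and DBA/2 at 20% oxygen (horizontal) and at 1% oxygen (vertical), with 1 point per gene. Triangles mark the 176 genes at least 2-fold higher and the 142 at least 2-fold lower at 20%, the dashed line marks equal differences, and Zfp979 lies close to it while B3gnt5 and Ifi205 lie on the other side of 0.

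The difference itself was compared between oxygen levels by an interaction in the same fit, added after the data were seen. It passed for 6830 genes (46.0% of those tested). Among the 30 largest changes at 20% it passed for 26, a count that is raised by choosing genes for their size at 20%. The line difference of Prelp was larger at 1%, where it had 7.88 and 5.62 CPM in DBA/2 and 147 and 175 CPM in the Hif1a line. That of Ankrd1 was smaller, with 24.5 and 21.6 CPM against 23.9 and 31.2 CPM. B3gnt5 was turned around, with 21.0 and 21.1 CPM in DBA/2 and 6.12 and 6.93 CPM in the Hif1a line at 1%.

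The line differences of Pdk1 and Vegfa, both HIF targets, also changed between oxygen levels. At 1% Pdk1 had 137 and 136 CPM in DBA/2 and 125 and 119 CPM in the Hif1a line, a log2 difference of -0.16 after -1.46 at 20%. Vegfa had 116 and 112 CPM against 153 and 183 CPM, a difference of 0.54 after -1.0. Slc2a3 differed more at 1% than at 20%, by -2.24 (294 and 263 CPM against 61.8 and 54.7 CPM). Library names at 1% carry the mark 6d for the Hif1a line, 2d for C57BL/6 and none for DBA/2, so the time at 1% may differ between the lines.

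At both oxygen levels, 88 genes were at least 2-fold higher in the Hif1a line and 21 at least 2-fold lower. The 88 had a median log2 difference of 1.30 at 20% and 1.81 at 1%. Prelp, Fmod, Cemip and Lox were among them, and 2 of the 88, Thbs1 and Ccn2, were on the feeder list. The feeder sum rose with them, from 9406 CPM (SD 1506, n = 2) to 14019 CPM (SD 760, n = 2) at 20%, and its part in these differences was not tested. Sfi1, also in the set, had 39.2 and 41.1 CPM in C57BL/6, below the 123 and 133 CPM of DBA/2 at 1%. Clec2g, a further member, was at 0.0627 and 0.0518 CPM in C57BL/6 and 4.59 and 3.39 CPM in the Hif1a line at 20%. It lies on chromosome 6, whose genes had a median log2 difference of 0.36 between C57BL/6 and DBA/2 at 1%.

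The 21 persistently lower genes held none of the feeder list, of which 0 members were at least 2-fold lower at 20%. Their median log2 differences were -1.13 at 20% and -1.34 at 1%. The choice required a 2-fold difference at both levels, so likeness of the 2 medians comes with it. Of the 21 genes, 8 lay in 3 short runs, where lower genes of the set began within 1 Mb of each other. Zfp979, in a run on chromosome 4, had 42.1 and 42.5 CPM in DBA/2 and 9.56 and 10.8 CPM in the Hif1a line at 20%, and 38.6 and 37.2 against 9.98 and 8.20 CPM at 1%. C57BL/6 cells had 8.21 and 9.58 CPM. The Hif1a line at both oxygen levels and C57BL/6 at 1% lay far below every DBA/2 library.

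Many zinc finger genes of such clusters code for repressors of mobile DNA elements, and the clusters are known to vary between mouse strains. The run on chromosome 4 (chr4:147305674-147642513) held 6 tested genes, of which 5 were lower at 20% and 5 at 1%, with medians of -0.94 and -0.88. That on chromosome 17 (chr17:21730795-22361400) held 9, of which 8 were lower at 20% and 9 at 1%, with medians of -0.94 and -1.16. On chromosome 13 (chr13:62368328-62760709) 4 of 5 were lower at each level. In C57BL/6 at 1% the medians of the 3 runs were -1.18, -1.63 and -1.03, against the same DBA/2 libraries as in the comparison at 1%. The runs were found from the data, so these counts are a description. Over all 367 tested genes with a Zfp number as symbol, 122 (33.2%) were lower and 75 (20.4%) higher at 20%. Over all genes 22.6% were lower and 26.4% higher. The median log2 difference of the 367 was -0.07.

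**Figure D5:**
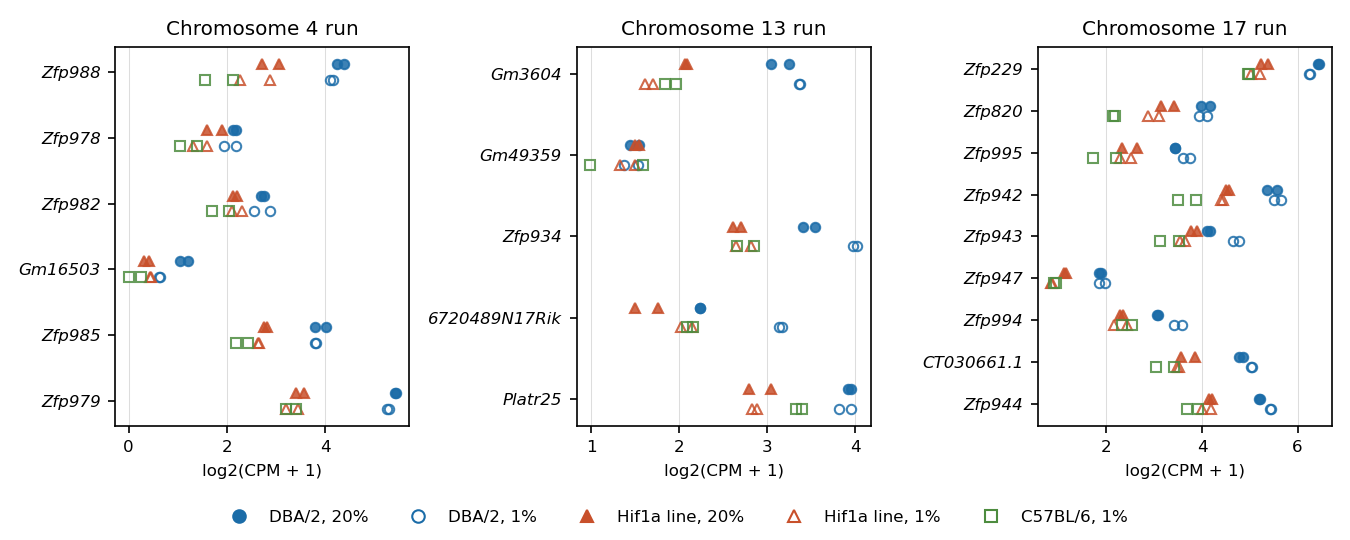
Level of every tested gene in the 3 runs, as log2(CPM + 1) with 1 point per library, filled at 20% and open at 1% oxygen, with circles for DBA/2, triangles for the Hif1a line and squares for C57BL/6. For Zfp979 the DBA/2 libraries lie between 37.2 and 42.5 CPM and the other libraries between 8.20 and 10.8 CPM.

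Other members of the persistently lower set lay outside these runs. Sycp3 was among them, at 140 and 154 CPM in DBA/2 and 56.2 and 59.2 CPM in the Hif1a line at 1%. Bbs4, a subunit of the ciliary BBSome, differed by -1.44 at 20% and -1.54 at 1%. Ptges3, the cochaperone p23, differed by -1.02 and -1.26, and Lypla1, a thioesterase that removes palmitate from proteins, by -1.02 and -1.66. In C57BL/6 at 1% the difference from DBA/2 was -0.61 for Sycp3, -0.58 for Bbs4, -1.11 for Ptges3 and -1.42 for Lypla1. These genes were named after their values were seen. Reads from a near-identical copy elsewhere in the genome, and mismatches between a strain and the reference, can move such values and were not tested.

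Few genes were close to absent in one line alone. With at most 3 reads in each library of a line and a mean of at least 1 CPM in the other, 1 gene was near absent in DBA/2 and 6 in the Hif1a line, and 0 were left in either when 0 reads were asked for. Vip, a neuropeptide, had 2 and 3 reads in DBA/2 and 26 and 29 reads in the Hif1a line, at least 11-fold higher against a floor of 3 reads per library. Pkd2l1, a cation channel, had 0 and 1 read in the Hif1a line and 25 and 44 reads in DBA/2, at least 9.3-fold lower in the Hif1a line. It had 21.5 and 22 CPM in C57BL/6 at 1%, and it lies on chromosome 19, whose genes had a median log2 difference of 0.39 in that comparison. The other 5 were Neu2, Samd7, Nlrp4e, Pdzk1ip1 and Slc18a2, with folds of at least 6.2 to 8.1. Intervals and floors cover counting error only.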

How the data were processed

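The authors deposited CPM values, reads per 1000000 reads on protein-coding genes, in 1 table of 16 libraries. The submitters' processing notes name cutadapt 1.16, STAR 2.6.0c, HTSeq 0.11.2, DESeq2 1.22.2 and mm10, and the labels' protocols name a stranded mRNA kit. Each column summed to 1000000, and all values came out as whole reads within a tolerance of 0.01.

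Genes with at least 1 CPM in at least 2 libraries were tested on log2(CPM + 1) with limma 3.58.1 (R 4.3.3). The fit had 1 mean for each of 8 groups and a trended prior, with Benjamini-Hochberg adjusted p over all 14841 genes. Fold changes on this scale understate those of low genes. Named genes were the 15 largest rises and 15 largest falls with a mean of at least 5 CPM in a group, and up to 4 called genes per list by adjusted p. The gene lists and members were chosen with earlier results of these data known. Alternatives used edgeR 4.0.16 and DESeq2 1.42.0 on the recovered reads, other pseudocounts, filters and scaling, the feeder sum as a covariate and libraries left out. Some genes of the lists were counted but are not reported here by name. Gene positions came from GENCODE M21. The fit was tested on simulated data. Intervals and floors cover counting error only.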

Additional observations from a re-analysis of the deposited data

Results flagged for a closer look

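For 26 of the 30 genes with the largest rises and falls at 20% oxygen, the difference between the lines itself differed between 1% and 20% oxygen by limma's interaction, which passed for 46.0% of all genes. The 20% values chose these genes, so part of each change toward 0 comes with the choice. Values are log2 differences at 1% minus those at 20%.

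Among the genes higher in the Hif1a line at 20%, the difference grew at 1% for Lpl by 2.17, Prelp by 1.44, Zfhx4 by 0.96 and Cemip by 0.69. It changed by -3.36 for B3gnt5, -2.34 for Ankrd1, -1.70 for Tinagl1, -1.56 for Vwf and -1.28 for Syt13. Smaller changes were -0.74 for Tmem40, -0.74 for Capn11 and -0.70 for Sfi1.

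All 14 genes lower at 20% that passed moved upward. The change was 3.6 for Ifi205, 2.72 for Itgb8, 2.02 for St8sia1, 1.97 for Slc7a11, 1.84 for Inhba and 1.76 for Tmc3. It was 1.62 for Il11, 1.39 for Stc1, 1.31 for Fam84a, 1.10 for Xkr6 and 1.04 for Nkx2-3. It was 0.90 for Creb5, 0.71 for Hs3st3b1 and 0.65 for Snap25. The feeder sum differed between the lines at both oxygen levels. With it as a covariate the difference at 1% turned in sign for Ankrd1, Syt13, Tinagl1, Tmc3, Itgb8 and Inhba. For Tinagl1 and Inhba limma then gave p of 0.012 and 0.0012, and for the others 0.32 to 0.9.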

How the results depend on the processing

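With the feeder sum as a covariate, genes higher and lower at 20% numbered 1797 and 1622, those at 1% numbered 243 and 398, and those between C57BL/6 and DBA/2 numbered 302 and 247. The cause was not tested, and errors widen with this covariate because the feeder sum differs between groups. Genes at least 2-fold higher and lower at 20% numbered 443 and 269 with DESeq2, 480 and 304 with edgeR, and 443 and 289 with a pseudocount of 0.1. DESeq2 called 3740 genes lower at 1%. Asking for 0 reads left 0 near-absent genes in DBA/2 and 0 in the Hif1a line.

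Leaving out 1 library gave 2928 to 3145 genes higher and 2625 to 2676 lower at 20%, and 148 to 234 and 139 to 161 at least 2-fold. It gave 2691 to 3135 higher and 5214 to 5772 lower at 1%, and 3641 to 3811 and 4101 to 4250 for C57BL/6. A lone library was taken to vary like the other groups. With a replicate block, 4054 genes were higher and 3430 lower at 20%. Differences between replicates 1 and 2 at 20% had a correlation of -0.0782 between the 2 lines. Whether same-numbered libraries share a preparation was not tested.

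Of 166 genes named by rule, 126 kept their direction and call at 20% in all 14 alternatives, and 32 changed with the feeder covariate alone. With that covariate the sign turned at 20% for Ifitm3 (-0.01), Hist1h2bc (-0.02) and Nnt (-0.02), with limma p of 0.93 to 0.98. At 1% the sign turned for Ankrd1 (-0.87), Syt13 (-0.53), Tinagl1 (-2.24), Tmc3 (0.47), Itgb8 (-0.26) and Inhba (-1.59). For C57BL/6 it turned in Syt13 (-0.57), Tinagl1 (-0.34), Il11 (-0.47) and Inhba (-1.12). Limma p was 0.012 for Tinagl1 and 0.0012 for Inhba at 1%, and 0.0062 for Inhba in C57BL/6. For the others it was 0.32 or more. At 16324013 to 23436895 reads, genes near 1 CPM rest on few reads.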

Other observations

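Libraries not in the comparison showed chromosome-wide levels of their own. Relative to DBA/2 at 20% and centred on each library's median, genes of chromosome 6 had medians of 0.40 and 0.37 in C57BL/6 wild-type libraries at 1% and 0.37 and 0.36 in Top1mt knockout libraries. Chromosome 2 had 0.30 and 0.30 and chromosome 19 had 0.39 and 0.38 in the C57BL/6 wild-type libraries. On chromosome 16 the medians were -0.22 and -0.21 in Hif1a knockout libraries at 1%.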
